A study of Mus musculus with 12 samples.

Results

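The genes described here were 10 members of the BCL2 family that are not counted among its p53 targets: Bcl2, Bcl2l1, Bcl2l2, Mcl1, Bcl2l11, Bid, Bad, Bmf, Bak1 and Bok. They were taken by symbol from a fixed list and matched to their Ensembl identifiers, by a rule that uses no measured value. The list itself was chosen with earlier results of these data known. All 10 were among the 53801 gene identifiers of the deposited counts, and all 10 were among the 15828 genes with enough reads to be tested. By textbook role 4 are anti-apoptotic (Bcl2, Bcl2l1, Bcl2l2 and Mcl1), 4 are pro-apoptotic BH3-only genes (Bcl2l11, Bid, Bad and Bmf) and 2 are pro-apoptotic effectors (Bak1 and Bok).

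RNA sequencing of polyadenylated RNA was carried out on 12 libraries of C2C12, a mouse myoblast line, in 4 groups of 3. Sh2-Thap cells carried a knockdown of Cebpg and received thapsigargin (Thap) for 6 h, Sh2-DMSO cells carried the knockdown and received the solvent for 6 h, and Ctrl-Thap and Ctrl-DMSO were control cells given the same treatments for the same time. Thapsigargin blocks the calcium pump of the endoplasmic reticulum and so provokes the unfolded protein response, and Cebpg encodes a bZIP transcription factor that pairs with ATF4 in that response. The design asks how the response to thapsigargin differs when Cebpg is low. Knockdown cells bear the single label Sh2, so an effect of the knockdown cannot be told apart from an off-target effect or another lasting difference of those cells. The labels do not say what the control cells received, what dose of thapsigargin was used or whether the 3 libraries of a group came from separate cultures. A p-value here therefore measures the spread between libraries, which may be technical. The culture note names HeLa cells while every library is labelled C2C12, and the reads were counted on mouse genes.

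Libraries held between 29424644 and 47719574 reads in genes. Cebpg had 6.12, 5.58 and 5.29 CPM (reads per 1000000 reads in genes, scaled between libraries) in Sh2-Thap, 4.63, 3.75 and 5.18 CPM in Sh2-DMSO, 211, 219 and 216 CPM in Ctrl-Thap and 51.8, 51.5 and 60.6 CPM in Ctrl-DMSO, so every library matched its label. In Sh2 cells Cebpg stood at 2.63% of the Ctrl level under thapsigargin and at 8.28% in DMSO. In a principal component analysis, thapsigargin and DMSO libraries parted along PC1 (65.1% of the variance) and Sh2 and Ctrl libraries along PC2 (19.5%). The 7 myoblast markers summed to between 1970.5 and 2062 CPM in Sh2-Thap libraries, 2091 and 2202 in Sh2-DMSO, 2044 and 2116 in Ctrl-Thap and 2535 and 2760.3 in Ctrl-DMSO. With thapsigargin 6 of the 7 fell, Myod1 and Des among them, and Myf5 rose, in both kinds of cell. In Sh2 against Ctrl cells 2 were higher and 3 lower under thapsigargin, and 2 were higher (Myf5 and Chrna1) and 4 lower in DMSO. The 4 leukocyte markers summed to at most 5.23 CPM in Sh2-Thap, 8.50 in Sh2-DMSO, 3.80 in Ctrl-Thap and 5.86 in Ctrl-DMSO, most of it Cd68, which was higher in Sh2 than in Ctrl cells and lower with thapsigargin, while Ptprc and Cd3e were near 0. The 3 endothelial markers summed to at most 3.11 CPM in Sh2-Thap, 1.04 in Sh2-DMSO, 2.25 in Ctrl-Thap and 0.816 in Ctrl-DMSO. The 3 epithelial markers summed to at most 4.83, 0.203, 1.91 and 0.117 CPM in the same order, with Epcam near 0. Under thapsigargin most of the epithelial sum was Krt18, which averaged 3.93 CPM in Sh2-Thap, 0.0908 in Sh2-DMSO, 1.44 in Ctrl-Thap and 0 in Ctrl-DMSO. The 2 adipocyte markers did not sum above 0.309 CPM in any library. These lists moved with the treatment, and their part in the results was not tested.

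Proteins of the BCL2 family decide whether the outer mitochondrial membrane stays closed. The effectors Bak and Bax form pores in it that release cytochrome c, which starts the caspases; the anti-apoptotic proteins bind and hold the effectors, and the BH3-only proteins block the anti-apoptotic proteins or activate the effectors directly. In mouse cells under prolonged stress of the endoplasmic reticulum, the transcription factor CHOP (Ddit3) is known to raise Bcl2l11 and to lower Bcl2. Many members are also controlled after transcription, so an RNA level is not a protein level. In bulk RNA fewer expressing cells and less RNA per cell cannot be told apart.

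Promoter sequence is shown for 2 members because Bok had the largest fall under thapsigargin of the 10 and Bcl2l11 held the only match among the motifs searched. Windows reaching from 250 bases before to 50 bases after a RefSeq transcript start (RefSeq, GRCm38.p6) were found for all 10 members, 16 windows in all. Each run below gives the 250 bases before a start, 5′ to 3′ on the strand of the gene, and capitals mark the forkhead motif GTAAACA. Bcl2l11 is shown at chr2:128125788-128126037 on the plus strand, with the motif at -227 to -221 from the start, and Bok at chr1:93685325-93685574 on the plus strand.
Bcl2l11: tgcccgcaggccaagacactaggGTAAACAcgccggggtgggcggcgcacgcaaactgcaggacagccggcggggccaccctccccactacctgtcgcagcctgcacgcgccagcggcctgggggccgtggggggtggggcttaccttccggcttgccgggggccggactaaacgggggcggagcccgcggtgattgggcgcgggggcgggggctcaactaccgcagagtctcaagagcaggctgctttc
Bok: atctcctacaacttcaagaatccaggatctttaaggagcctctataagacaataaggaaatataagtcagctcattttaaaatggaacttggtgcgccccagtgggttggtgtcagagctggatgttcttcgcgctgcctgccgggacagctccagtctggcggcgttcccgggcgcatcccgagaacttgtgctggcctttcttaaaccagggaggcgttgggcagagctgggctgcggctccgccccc
The forkhead motif, searched on both strands, was in 1 of the 16 windows and in 3.65% of the 32851 RefSeq windows of the same length. The composite C/EBP-ATF element TGATGNAA was in none of the 16 windows and in 3.97% of all windows, and the cyclic AMP response element TGACGTCA was in none of the 16 and in 1.79% of all. The ER stress element was in none of the 16 and in 0.12% of all windows. These letters are absent from these windows only, and a match is a description and not a binding site. Bases G and C made up 72.0% of the Bcl2l11 run and 55.2% of the Bok run, beside a median of 52.4% over all such upstream runs.

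Levels of different genes were compared as CPM per kilobase (kb) of exon. The length was that of all exons of a gene merged, and ranks depend on this choice. Bok has 1840 bases of merged exon but 1468 in its longest transcript, while Mcl1 has 3418 by both. The order of these 2 genes in the DMSO groups therefore holds for merged exons only. By this length Mcl1 was the highest of the 10 in every group, at 74.0 CPM per kb in Sh2-Thap, 65.7 in Sh2-DMSO, 68.2 in Ctrl-Thap and 54.1 in Ctrl-DMSO. Bok was next to it in both DMSO groups, with 62.5 CPM per kb in Sh2-DMSO and 51.6 in Ctrl-DMSO, but took rank 4 in Sh2-Thap with 18.4 CPM per kb and rank 7 in Ctrl-Thap with 7.18. Bid took rank 2 under thapsigargin, at 45.9 CPM per kb in Sh2-Thap and 45.0 in Ctrl-Thap. Bcl2l11, Bcl2 and Bmf were the lowest 3 in each group, and Bmf did not exceed 0.655 CPM per kb. Bok, Bak1, Bcl2l1 and Bad shared one order of group means, with Sh2-DMSO highest, then Ctrl-DMSO, Sh2-Thap and Ctrl-Thap. In that order the libraries of neighbouring groups did not overlap, except for Bad in Sh2-DMSO and Ctrl-DMSO. The share of all genes whose groups do not overlap was not computed. A lack of overlap, here or below, therefore does not set the members apart. Mcl1 and Bid had both thapsigargin groups above both DMSO groups, whereas Bcl2 and Bcl2l2 had both Ctrl groups above both Sh2 groups.

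**Figure D1:**
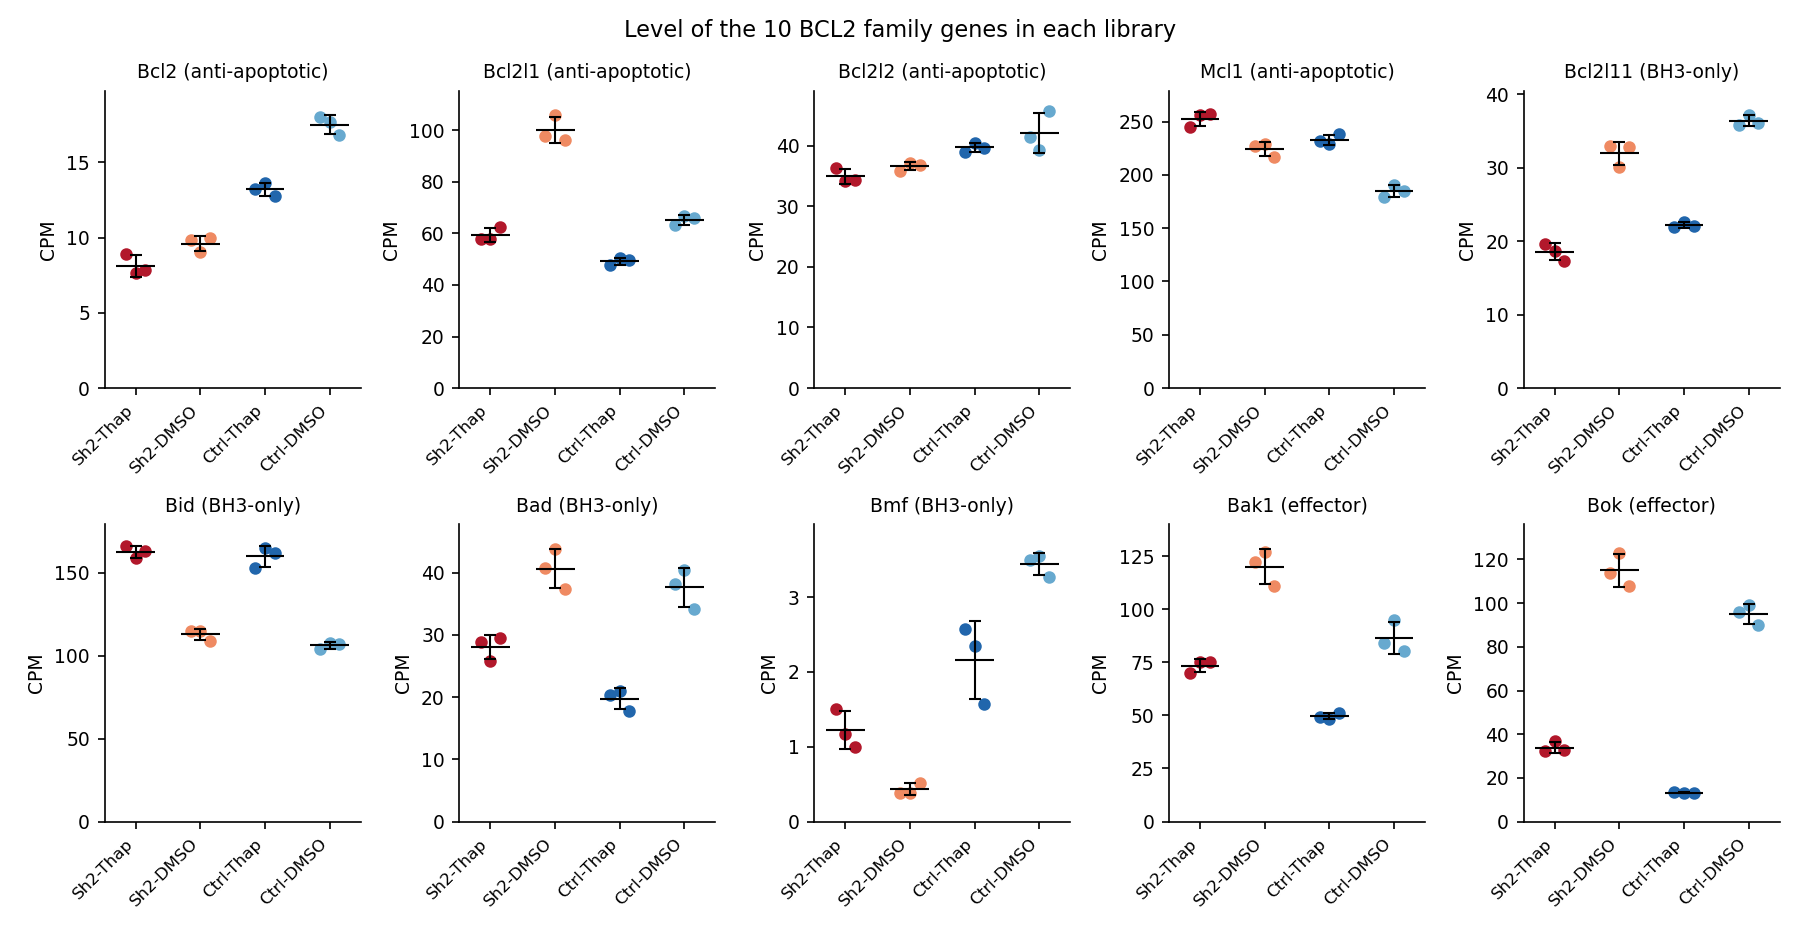
Level of each of the 10 genes in CPM (vertical axis, from 0) in the 3 libraries of Sh2-Thap, Sh2-DMSO, Ctrl-Thap and Ctrl-DMSO, with points for libraries, horizontal lines for group means and bars for ±1 SD. Bok fell to between 13.0 and 13.5 CPM in Ctrl-Thap, against 90.0 to 99.0 CPM in Ctrl-DMSO, and Bmf was lowest in Sh2-DMSO.

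Thapsigargin moved most of the 10 genes in both kinds of cell, with pro-apoptotic members falling more often than rising. In Sh2 cells Bmf, Bid and Mcl1 rose, Bok, Bcl2l11, Bcl2l1, Bak1, Bad and Bcl2 fell, and Bcl2l2 did not pass the test. In Ctrl cells Bid and Mcl1 rose, Bok, Bad, Bak1, Bcl2l11, Bmf, Bcl2l1 and Bcl2 fell, and Bcl2l2 again did not pass. A gene was called at an adjusted p under 0.05 in edgeR's quasi-likelihood test with Benjamini-Hochberg adjustment over all 15828 genes. In Sh2 cells 9 members were called, 3 up and 6 down, beside 69.8% of all genes tested (35.4% up and 34.4% down). In Ctrl cells 9 members were called, 2 up and 7 down, beside 74.7% of all genes tested (37.7% up and 37.0% down). With so many genes called, being called does not set the members apart, and the sizes are the more informative values. The median change of the 10 was -0.39 on the log2 scale in Sh2 cells and -0.54 in Ctrl cells, and that of all genes was 0.00 in Sh2 and -0.00 in Ctrl cells. The median size of change regardless of sign was 0.62 for the members and 0.45 for all genes in Sh2 cells, and 0.63 and 0.55 in Ctrl cells.

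Between Sh2 and Ctrl cells 8 members differed in DMSO and 9 under thapsigargin. Under thapsigargin Bok, Bak1, Bad, Bcl2l1 and Mcl1 were higher and Bmf, Bcl2, Bcl2l11 and Bcl2l2 lower in Sh2 than in Ctrl cells, beside 56.9% of all genes called (28.5% up and 28.4% down). In DMSO Bcl2l1, Bak1, Bok and Mcl1 were higher and Bmf, Bcl2, Bcl2l2 and Bcl2l11 lower in Sh2 than in Ctrl cells, beside 51.5% of all genes called (25.0% up and 26.5% down). The members' median change was 0.07 under thapsigargin and 0.10 in DMSO, beside 0.02 and 0.00 for all genes tested. Their median size of change regardless of sign was 0.39 under thapsigargin and 0.28 in DMSO, beside 0.31 and 0.27 for all genes. With scaling by library size alone the median of all genes moved to 0.15 for Sh2 under thapsigargin, to 0.12 for thapsigargin in Sh2 cells and to 0.17 for the difference of the thapsigargin effects, and 66.6% of the calls for Sh2 under thapsigargin were up in place of 50.1%.

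The difference between the thapsigargin effect in Sh2 and that in Ctrl cells was called for 5 members, beside 35.4% of all genes tested (17.7% up and 17.7% down). It was positive for Bmf, Bok and Bad and negative for Bcl2l1 and Mcl1, and it was not called for Bcl2, Bcl2l2, Bcl2l11, Bid and Bak1. The count is close to that background and is no result about the family, so each member is described below with its own values. With scaling by library size alone 75.6% of all calls for this difference were positive in place of 49.9%.

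**Figure D2:**
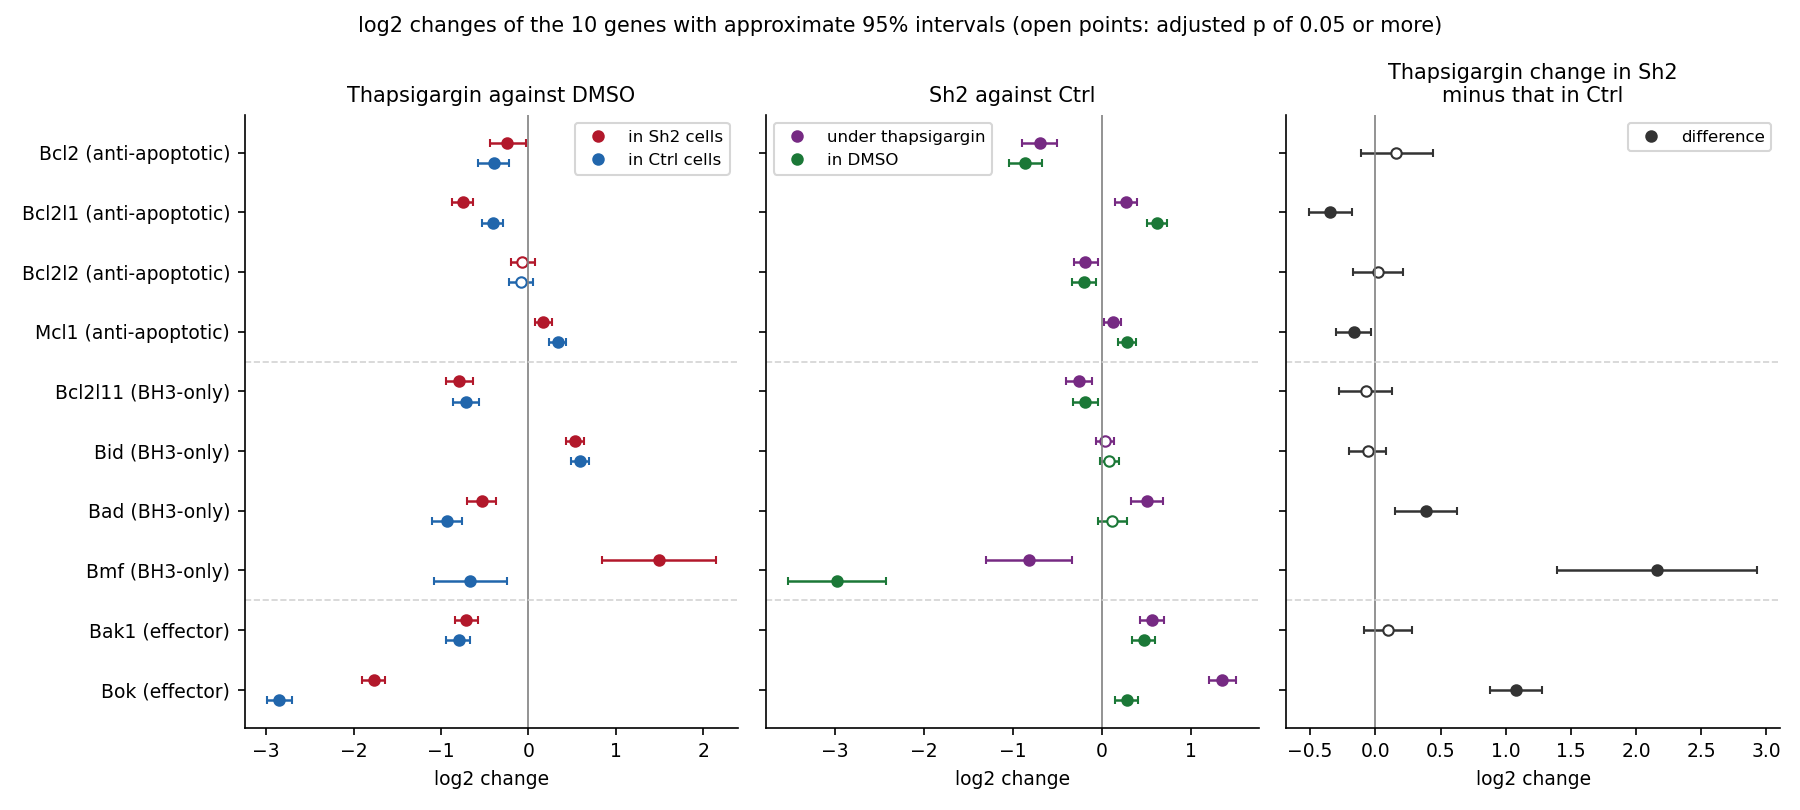
Fitted log2 changes (horizontal axes) of the 10 genes with approximate 95% intervals, for thapsigargin against DMSO in Sh2 and in Ctrl cells (left), for Sh2 against Ctrl under thapsigargin and in DMSO (middle) and for the difference of the thapsigargin changes, Sh2 minus Ctrl (right), with open points where the adjusted p was 0.05 or more. Bok stands at -1.77 in Sh2 and -2.85 in Ctrl cells on the left, and Bmf at -2.98 in DMSO in the middle.

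Among the anti-apoptotic members, Bcl2, which holds Bax, Bak and BH3-only proteins and gave the family its name, was lower in Sh2 cells. The gene lies at chr1:106538178-106714274 on the minus strand (GRCm38, as for the genes that follow). Bcl2 had 8.94, 7.62 and 7.82 CPM in Sh2-Thap libraries, 9.81, 9.06 and 9.95 CPM in Sh2-DMSO, 13.2, 13.6 and 12.8 CPM in Ctrl-Thap and 18.0, 17.7 and 16.8 CPM in Ctrl-DMSO. No group overlapped another, and both Sh2 groups lay below both Ctrl groups. In Sh2 cells Bcl2 stood at 54.8% of the Ctrl level in DMSO (log2 change -0.87 ± 0.08 SE, edgeR adjusted p = 1.04e-10) and at 61.5% under thapsigargin (-0.70 ± 0.08, adjusted p = 1.36e-08). In DMSO 14.4% of all genes had a larger change in either direction. Thapsigargin lowered Bcl2 to 84.7% in Sh2 cells (-0.24 ± 0.09, edgeR adjusted p = 0.0176) and to 75.6% in Ctrl cells (-0.40 ± 0.08, adjusted p = 2.32e-05). The call in Sh2 cells was lost with scaling by library size alone (-0.12, adjusted p = 0.238), without Sh2-DMSO library 3 (-0.22, adjusted p = 0.0567), without Sh2-Thap library 2 (-0.20, adjusted p = 0.0716) and without Sh2-Thap library 3 (-0.21, adjusted p = 0.0632). The difference of the thapsigargin effects was 0.16 (95% interval -0.11 to 0.44, edgeR adjusted p = 0.301), and it was called only with scaling by library size alone (0.32, adjusted p = 0.0283). Bcl2 shares 6.09% of its exon bases with D630008O14Rik on the opposite strand, which did not average above 0.0289 CPM in any group.

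Bcl2l1 encodes Bcl-xL, which guards the mitochondrial membrane and binds several BH3-only proteins, and was the anti-apoptotic member with the largest rise in Sh2 cells. Bcl2l1 lies at chr2:152780668-152831728 on the minus strand. Its libraries had 57.9, 57.7 and 62.5 CPM in Sh2-Thap, 97.9, 106 and 96.4 CPM in Sh2-DMSO, 47.6, 50.3 and 49.6 CPM in Ctrl-Thap and 63.1, 66.8 and 66.0 CPM in Ctrl-DMSO. The Sh2-DMSO libraries stood above all others, and no groups overlapped. Thapsigargin lowered Bcl2l1 to 59.3% in Sh2 cells (log2 change -0.75 ± 0.05 SE, edgeR adjusted p = 8.80e-15) and to 75.3% in Ctrl cells (-0.41 ± 0.05, adjusted p = 1.58e-08). Bcl2l1 was 1.21-fold higher in Sh2 than in Ctrl cells under thapsigargin (0.27 ± 0.05, edgeR adjusted p = 4.00e-05) and 1.53-fold higher in DMSO (0.62 ± 0.05, adjusted p = 3.99e-12). The fall was larger in Sh2 cells, by a difference of -0.35 ± 0.07 (edgeR adjusted p = 0.000262). That difference was -0.19 with scaling by library size alone (adjusted p = 0.0353).

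Bcl2l2, which encodes Bcl-w, was the most even of the 10 genes. Bcl2l2 lies at chr14:54883377-54888234 on the plus strand. It had 36.3, 34.1 and 34.3 CPM in Sh2-Thap, 35.8, 37.1 and 36.8 CPM in Sh2-DMSO, 39.0, 40.5 and 39.6 CPM in Ctrl-Thap and 41.4, 39.2 and 45.7 CPM in Ctrl-DMSO. Libraries given thapsigargin overlapped those given DMSO in both kinds of cell, while those of Sh2 lay below those of Ctrl in both treatments. The thapsigargin change was -0.07 on the log2 scale in Sh2 cells (95% interval -0.20 to 0.07, edgeR adjusted p = 0.322) and -0.08 in Ctrl cells (-0.22 to 0.05, adjusted p = 0.190). Bcl2l2 was lower in Sh2 than in Ctrl cells by a log2 change of -0.19 ± 0.06 under thapsigargin (edgeR adjusted p = 0.00723) and of -0.20 ± 0.06 in DMSO (adjusted p = 0.00408). The first of these calls was lost with scaling by library size alone (-0.05, adjusted p = 0.460) and the other without Ctrl-DMSO library 3 (-0.14, adjusted p = 0.0638). Between Sh2 and Ctrl cells the thapsigargin effects differed by 0.02 (95% interval -0.17 to 0.21, edgeR adjusted p = 0.905). Bcl2l2 shares 13.3% of its exon bases with Gm20521 on the same strand, which averaged 0 CPM in every group. How reads in these shared bases were counted is not given.

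Mcl1, whose short-lived protein holds Bak and Bim, was the only anti-apoptotic member that rose with thapsigargin. Mcl1 lies at chr3:95658788-95663176 on the plus strand. Mcl1 had 245, 256 and 257 CPM in Sh2-Thap, 227, 229 and 217 CPM in Sh2-DMSO, 232, 229 and 238 CPM in Ctrl-Thap and 179, 190.3 and 185 CPM in Ctrl-DMSO. Ctrl-DMSO was lowest, and every thapsigargin library lay above the DMSO libraries of the same cells. Thapsigargin raised Mcl1 1.13-fold in Sh2 cells (log2 change 0.17 ± 0.04 SE, edgeR adjusted p = 0.000528) and 1.26-fold in Ctrl cells (0.34 ± 0.04, adjusted p = 1.35e-08). In Sh2 cells the rise was 0.29 with scaling by library size alone. Mcl1 was 1.08-fold higher in Sh2 than in Ctrl cells under thapsigargin (0.12 ± 0.04, edgeR adjusted p = 0.0175) and 1.21-fold higher in DMSO (0.28 ± 0.04, adjusted p = 1.22e-06). The small rise under thapsigargin missed the threshold without Ctrl-Thap library 1 (0.11, adjusted p = 0.0559), Ctrl-Thap library 2 (0.10, adjusted p = 0.0814), Sh2-Thap library 2 (0.11, adjusted p = 0.0540) or Sh2-Thap library 3 (0.10, adjusted p = 0.0644), and was 0.25 with scaling by library size alone (adjusted p = 3.57e-06). The difference of the thapsigargin effects, -0.16 ± 0.06 (edgeR adjusted p = 0.0309), was lost in 8 of 20 alternatives. It was -0.00 with scaling by library size alone (adjusted p = 0.961), -0.15 with no filter on low counts (adjusted p = 0.138), and had an adjusted p between 0.0506 and 0.106 without library 1 of any of the 4 groups, without Sh2-DMSO library 2 or without Ctrl-Thap library 3.

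Among the BH3-only members, Bcl2l11 encodes Bim, which binds every anti-apoptotic member and can activate Bax and Bak. Bcl2l11 lies at chr2:128126038-128162547 on the plus strand. Bcl2l11 had 19.6, 18.7 and 17.3 CPM in Sh2-Thap, 32.9, 30.1 and 32.8 CPM in Sh2-DMSO, 21.9, 22.6 and 22.0 CPM in Ctrl-Thap and 35.8, 37.2 and 36.1 CPM in Ctrl-DMSO. All libraries given thapsigargin lay below all libraries given DMSO, and no groups overlapped. Thapsigargin lowered Bcl2l11 to 57.9% in Sh2 cells (log2 change -0.79 ± 0.06 SE, edgeR adjusted p = 1.08e-12) and to 61.0% in Ctrl cells (-0.71 ± 0.06, adjusted p = 3.04e-12). Ddit3, the gene of CHOP, averaged 193 CPM in Sh2-Thap and 18.0 CPM in Sh2-DMSO, and 406 CPM in Ctrl-Thap and 16.8 CPM in Ctrl-DMSO, so both thapsigargin groups had more Ddit3 and less Bcl2l11 than both DMSO groups. Foxo3, a forkhead factor known to drive Bcl2l11 in several cell types, rose by a log2 change of 0.89 in Sh2 and 0.75 in Ctrl cells with thapsigargin. Any part of either factor in the level of Bcl2l11 was not tested. The difference of the thapsigargin effects was -0.07 (95% interval -0.28 to 0.13, edgeR adjusted p = 0.563). Bcl2l11 was also slightly lower in Sh2 than in Ctrl cells, at 83.4% under thapsigargin (-0.26 ± 0.07, edgeR adjusted p = 0.000956) and 87.8% in DMSO (-0.19 ± 0.06, adjusted p = 0.00985). The call under thapsigargin was lost with scaling by library size alone (-0.13, adjusted p = 0.0920), and that in DMSO without Ctrl-DMSO library 2 (-0.16, adjusted p = 0.0554) or Sh2-DMSO library 2 (-0.15, adjusted p = 0.0679).

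Bid, which caspase-8 cleaves to carry a death-receptor signal to the mitochondria, followed thapsigargin and did not pass the test of Sh2 against Ctrl. Bid lies at chr6:120891930-120916853 on the minus strand. Its libraries had 166, 159 and 163 CPM in Sh2-Thap, 115, 115 and 109 CPM in Sh2-DMSO, 153, 165 and 162 CPM in Ctrl-Thap and 104, 108 and 107 CPM in Ctrl-DMSO. Both thapsigargin groups stood far above both DMSO groups and overlapped each other. Thapsigargin raised Bid 1.44-fold in Sh2 cells (log2 change 0.53 ± 0.04 SE, edgeR adjusted p = 1.57e-12) and 1.50-fold in Ctrl cells (0.59 ± 0.04, adjusted p = 7.10e-14). Sh2 against Ctrl was 0.03 under thapsigargin (95% interval -0.07 to 0.13, edgeR adjusted p = 0.633) and 0.08 in DMSO (-0.02 to 0.19, adjusted p = 0.110). These were called with scaling by library size alone under thapsigargin (0.16, adjusted p = 0.00177), and in DMSO with upper quartile scaling (0.10, adjusted p = 0.0487) and with the stricter filter (0.10, adjusted p = 0.0466). Between the cells the thapsigargin effects differed by -0.06 (95% interval -0.20 to 0.08, edgeR adjusted p = 0.498). Bid shares 17.7% of its exon bases with Bcl2l13 on the opposite strand, whose log2 change with thapsigargin was 0.29 in Sh2 and 0.01 in Ctrl cells.

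Bad, whose protein blocks Bcl2, Bcl-xL and Bcl-w and is held inactive by 14-3-3 proteins when phosphorylated, fell less in Sh2 cells. Bad lies at chr19:6941861-6951899 on the plus strand. Bad had 28.8, 25.8 and 29.5 CPM in Sh2-Thap, 40.8, 43.7 and 37.4 CPM in Sh2-DMSO, 20.4, 21.0 and 17.8 CPM in Ctrl-Thap and 38.2, 40.4 and 34.2 CPM in Ctrl-DMSO. The DMSO groups overlapped, and the thapsigargin groups lay below them and apart from each other. Thapsigargin lowered Bad to 69.1% in Sh2 cells (log2 change -0.53 ± 0.07 SE, edgeR adjusted p = 1.24e-07) and to 52.6% in Ctrl cells (-0.93 ± 0.07, adjusted p = 1.09e-12). Bad was 1.42-fold higher in Sh2 than in Ctrl cells under thapsigargin (0.51 ± 0.08, edgeR adjusted p = 1.12e-06), and the change in DMSO was 0.11 (95% interval -0.05 to 0.28, adjusted p = 0.194). Subtracting the Ctrl from the Sh2 thapsigargin effect gave 0.39 ± 0.10 (edgeR adjusted p = 0.00331). Bad shares 20.5% of its exon bases with Gpr137 on the opposite strand, and strand was not stated for these libraries. Gpr137 averaged 27.0 ± 1.17 CPM in Sh2-Thap, 37.1 ± 1.24 CPM in Sh2-DMSO, 17.1 ± 0.529 CPM in Ctrl-Thap and 35.8 ± 0.905 CPM in Ctrl-DMSO (SD, n = 3 each), in the same order of groups as Bad. The difference of the thapsigargin effects for Gpr137 was 0.61 ± 0.09 (edgeR adjusted p = 7.36e-07). An entry for ambiguous reads held 6.47% to 6.88% of the reads of each library and was outside the gene counts. How reads in the shared bases were counted is not given, and their part in the values of Bad was not tested.

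Bmf is a BH3-only gene whose protein is held at the cytoskeleton by a dynein light chain. It was the member with the largest change between Sh2 and Ctrl cells in DMSO and the lowest read number. Bmf lies at chr2:118528757-118549687 on the minus strand. Bmf had 51, 36 and 34 reads in Sh2-Thap, 12, 13 and 18 reads in Sh2-DMSO, 80, 108 and 56 reads in Ctrl-Thap and 120, 124 and 113 reads in Ctrl-DMSO. As levels these were 1.50, 1.17 and 0.999 CPM in Sh2-Thap, 0.388, 0.383 and 0.521 CPM in Sh2-DMSO, 2.57, 2.34 and 1.57 CPM in Ctrl-Thap and 3.50, 3.55 and 3.27 CPM in Ctrl-DMSO. No groups overlapped, with Sh2-DMSO lowest and Ctrl-DMSO highest. In DMSO Bmf stood at 12.7% of the Ctrl level in Sh2 cells (log2 change -2.98 ± 0.24 SE, 95% interval -3.53 to -2.43, edgeR adjusted p = 2.77e-12), and 1.15% of all genes had a larger change in either direction. Under thapsigargin it stood at 56.6% in Sh2 cells (-0.82 ± 0.21, edgeR adjusted p = 0.00112). The direction of the thapsigargin change differed between the cells: Bmf rose 2.81-fold in Sh2 cells (1.49 ± 0.28, edgeR adjusted p = 1.98e-05) and fell to 62.9% in Ctrl cells (-0.67 ± 0.18, adjusted p = 0.00127). The difference of the effects was 2.16 ± 0.33 (95% interval 1.39 to 2.93, edgeR adjusted p = 3.51e-06), and 2.43% of all genes had a larger one in either direction. Over the alternatives it ranged between 1.98 and 2.32, with an adjusted p of at most 5.29e-05.

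Among the effectors, Bak1 encodes Bak, which sits in the outer mitochondrial membrane and forms pores once released. Bak1 lies at chr17:27019810-27029009 on the minus strand. Bak1 had 69.8, 75.1 and 75.1 CPM in Sh2-Thap, 122, 127 and 111 CPM in Sh2-DMSO, 49.1, 48.4 and 51.3 CPM in Ctrl-Thap and 84.1, 95.1 and 80.4 CPM in Ctrl-DMSO. Sh2 libraries lay above Ctrl libraries in both treatments, and no groups overlapped. Thapsigargin lowered Bak1 to 61.2% in Sh2 cells (log2 change -0.71 ± 0.06 SE, edgeR adjusted p = 1.71e-12) and to 57.3% in Ctrl cells (-0.80 ± 0.06, adjusted p = 9.90e-14). Bak1 was 1.48-fold higher in Sh2 than in Ctrl cells under thapsigargin (0.56 ± 0.06, edgeR adjusted p = 1.02e-09) and 1.38-fold higher in DMSO (0.47 ± 0.06, adjusted p = 2.86e-08). Thapsigargin effects in Sh2 and Ctrl cells differed by 0.10 (95% interval -0.09 to 0.28, edgeR adjusted p = 0.397), and it was called only with scaling by library size alone (0.25, adjusted p = 0.0102). Bak1 shares 18.2% of its exon bases with an identifier of Ggnbp1 on the opposite strand that did not average above 1.31 CPM in any group, and 7.35% with another identifier of Ggnbp1 that was not analysed here.

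Bok, an effector found largely at the endoplasmic reticulum whose protein is kept low by degradation in healthy cells, had the largest response to thapsigargin of the 10. Bok lies at chr1:93685660-93695764 on the plus strand. Bok had 32.1, 36.7 and 32.6 CPM in Sh2-Thap, 114, 123 and 108 CPM in Sh2-DMSO, 13.5, 13.0 and 13.1 CPM in Ctrl-Thap and 95.8, 99.0 and 90.0 CPM in Ctrl-DMSO. Every library given thapsigargin lay far below every library given DMSO, and no groups overlapped. Thapsigargin lowered Bok to 29.3% in Sh2 cells (log2 change -1.77 ± 0.06 SE, 95% interval -1.90 to -1.64, edgeR adjusted p = 4.27e-23) and to 13.9% in Ctrl cells (-2.85 ± 0.06, 95% interval -2.99 to -2.70, adjusted p = 5.73e-28). In either direction 8.64% of all genes changed more in Sh2 cells and 6.06% in Ctrl cells. Bok was 2.56-fold higher in Sh2 than in Ctrl cells under thapsigargin (1.35 ± 0.07, edgeR adjusted p = 4.37e-18) and 1.21-fold higher in DMSO (0.28 ± 0.05, adjusted p = 5.98e-05). The fall was smaller in Sh2 cells, by a difference of 1.08 ± 0.09 (95% interval 0.88 to 1.28, edgeR adjusted p = 5.49e-12), and 9.08% of all genes had a larger difference in either direction.

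Pro- and anti-apoptotic members were then set against each other. With thapsigargin 2 of the 6 pro-apoptotic members rose and 4 fell in Sh2 cells (median log2 change -0.62), and 1 rose and 5 fell in Ctrl cells (median -0.76). Of the 4 anti-apoptotic members 1 rose, 2 fell and 1 did not pass in each kind of cell, with a median of -0.15 in Sh2 and -0.24 in Ctrl cells. Both effectors fell in both kinds of cell, and both were higher in Sh2 than in Ctrl cells in both treatments. The pro-apoptotic median for Sh2 against Ctrl was 0.27 under thapsigargin (3 up, 2 down, 1 not called) and 0.10 in DMSO (2 up, 2 down, 2 not called). The anti-apoptotic median was -0.03 under thapsigargin and 0.04 in DMSO, with 2 up and 2 down in both. For the difference of the thapsigargin effects 3 pro-apoptotic members were positive and 3 not called, while 2 anti-apoptotic members were negative and 2 not called. These are counts of a few genes, given as a description beside all-gene medians between -0.00 and 0.02. Of all genes tested, 35.4% rose and 34.4% fell with thapsigargin in Sh2 cells, and 37.7% and 37.0% in Ctrl cells. For Sh2 against Ctrl 28.5% were up and 28.4% down under thapsigargin, and 25.0% and 26.5% in DMSO. For the difference of the thapsigargin effects 17.7% were positive and 17.7% negative.

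Summed per kb of exon, the anti-apoptotic transcripts came to 95.7 ± 1.96 CPM per kb in Sh2-Thap, 96.8 ± 2.73 in Sh2-DMSO, 89.3 ± 1.22 in Ctrl-Thap and 79.7 ± 1.98 in Ctrl-DMSO (SD, n = 3 each). The pro-apoptotic transcripts came to 108 ± 0.808 CPM per kb in Sh2-Thap, 164 ± 9.39 in Sh2-DMSO, 83.7 ± 1.47 in Ctrl-Thap and 137 ± 6.93 in Ctrl-DMSO. The pro-apoptotic sum was lower under thapsigargin in both kinds of cell, with no overlap between libraries, while the anti-apoptotic sums overlapped between Sh2-Thap and Sh2-DMSO. As a percentage of the anti-apoptotic sum, the pro-apoptotic sum was 113% ± 1.52 in Sh2-Thap and 169% ± 4.96 in Sh2-DMSO, and 93.8% ± 1.90 in Ctrl-Thap and 173% ± 8.79 in Ctrl-DMSO. Libraries of the DMSO groups overlapped in this percentage, and Sh2-Thap libraries (112% to 115%) lay above Ctrl-Thap libraries (92.6% to 96.0%). The lower sum lay in the effectors, while the BH3-only sum was higher under thapsigargin. The effectors summed to 48.8 ± 2.34 CPM per kb in Sh2-Thap, 112 ± 7.50 in Sh2-DMSO, 27.8 ± 0.638 in Ctrl-Thap and 87.6 ± 5.50 in Ctrl-DMSO. The BH3-only transcripts summed to 59.4 ± 1.74 CPM per kb in Sh2-Thap, 51.8 ± 2.0 in Sh2-DMSO, 55.9 ± 1.75 in Ctrl-Thap and 49.9 ± 1.44 in Ctrl-DMSO. As a percentage of the anti-apoptotic sum, the BH3-only sum was 62.1% in Sh2-Thap, 53.5% in Sh2-DMSO, 62.6% in Ctrl-Thap and 62.6% in Ctrl-DMSO. Bid carried the higher sums under thapsigargin, with 45.9 CPM per kb in Sh2-Thap and 31.8 in Sh2-DMSO, and 45.0 in Ctrl-Thap and 30.0 in Ctrl-DMSO, while Bcl2l11 and Bad fell in both kinds of cell. Mcl1 alone made 77.4% of the anti-apoptotic sum in Sh2-Thap and 67.9% in Sh2-DMSO, and 76.4% in Ctrl-Thap and 67.9% in Ctrl-DMSO. A sum weights genes by abundance and depends on the length chosen: with the longest transcript as the length, the percentage in Ctrl-Thap was 114% and no longer below 100%, and it was 134% in Sh2-Thap. Bax, an effector outside this list, is not in the sums, and neither are the BH3-only genes Bbc3 and Pmaip1, which rose with thapsigargin. Bbc3 averaged 11.9 CPM per kb in Sh2-Thap, 4.25 in Sh2-DMSO, 14.6 in Ctrl-Thap and 5.36 in Ctrl-DMSO. Pmaip1 averaged 26.6, 9.91, 14.3 and 4.19 CPM per kb in the same order, and Bax 25.0, 29.8, 15.4 and 17.3. The percentages therefore hold for the 10 listed genes only.

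**Figure D3:**
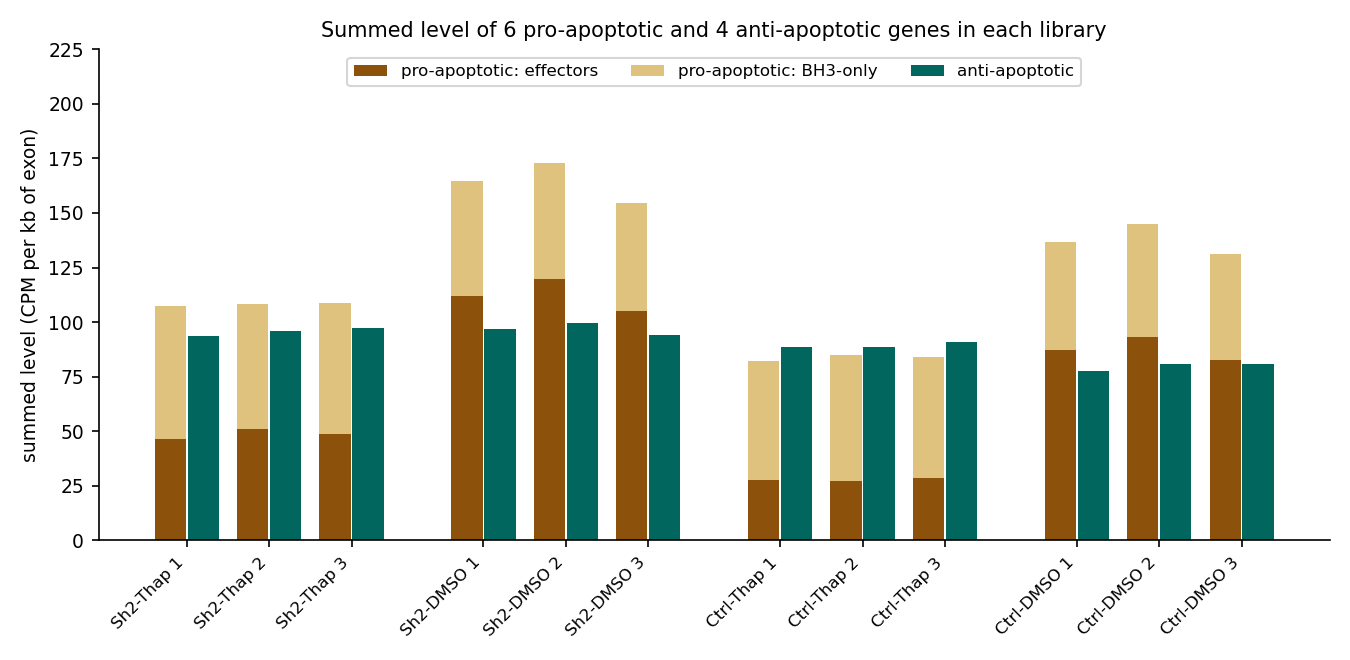
Summed level (CPM per kb of exon, vertical axis from 0) of the pro-apoptotic genes, stacked as effectors and BH3-only genes, beside that of the anti-apoptotic genes, in each of the 12 libraries. The effector part is 46.4 to 51.1 in Sh2-Thap against 105 to 119.8 in Sh2-DMSO, and 27.2 to 28.5 in Ctrl-Thap against 82.4 to 93.3 in Ctrl-DMSO.

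Genes with the most similar pattern were sought for the 6 members whose group means spanned at least 1 on the log2 scale, by the root mean square difference of the 4 centred group means of log2 CPM, among 10202 genes with a mean of at least 5 CPM. Bok spanned 3.11 and was nearest to Ccne1 (0.09), the cyclin E1 gene, and E2f8 (0.18), a cell cycle transcription factor. Bmf spanned 2.85, and the nearest genes were Rgcc at 0.36 and Il1rn at 0.37. Bmf did not exceed 3.55 CPM in any library, below the limit of 5 CPM, so genes at its own level were not searched. Bak1 spanned 1.27 and was nearest to Fam83d (0.01) and Ap1s1 (0.03), Bcl2 spanned 1.11 and was nearest to P2rx6 and Rnf157 (0.04 each), Bad spanned 1.04 and was nearest to Dck (0.01) and Tst (0.02), and Bcl2l1 spanned 1.02 and was nearest to Gm4737 (0.04) and mt-Nd1 (0.06). Among the members the closest pairs were Bad with Bak1 (0.13), Bcl2l1 with Bak1 (0.14) and Mcl1 with Bid (0.17). All 4 means come from the same 12 libraries, so the likeness is a description.

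The family members known as p53 targets were measured beside the 10. Pmaip1, which encodes the BH3-only protein Noxa, averaged 72.7 CPM in Sh2-Thap, 27.1 in Sh2-DMSO, 39.0 in Ctrl-Thap and 11.5 in Ctrl-DMSO. Bbc3, which encodes the BH3-only protein Puma, averaged 25.2 CPM in Sh2-Thap, 9.03 in Sh2-DMSO, 31.0 in Ctrl-Thap and 11.4 in Ctrl-DMSO. Both rose with thapsigargin, Pmaip1 by 1.43 in Sh2 and 1.77 in Ctrl cells and Bbc3 by 1.48 in Sh2 and 1.45 in Ctrl cells on the log2 scale, which is more than any of the 10 members rose except Bmf in Sh2 cells. Bax, the effector most like Bak1, fell by 0.26 in Sh2 and 0.17 in Ctrl cells with thapsigargin, and was higher in Sh2 than in Ctrl cells by 0.70 under thapsigargin and 0.78 in DMSO. As background to these lists, 35.4% of all genes tested rose and 34.4% fell with thapsigargin in Sh2 cells, and 37.7% rose and 37.0% fell in Ctrl cells. Of 12 other relatives 6 had enough reads to be tested. Of these 1 rose and 2 fell with thapsigargin in Sh2 cells, and none rose and 4 fell in Ctrl cells. Bnip3, linked to mitophagy, was lower in all 4 comparisons of groups. Bik, a BH3-only gene, averaged 0.961 CPM in Sh2-Thap and 0.903 CPM in Sh2-DMSO, and 0.230 CPM in Ctrl-Thap and 0.905 CPM in Ctrl-DMSO, a difference of the thapsigargin effects of 2.01 ± 0.47 (edgeR adjusted p = 0.000906).

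Downstream of the mitochondria, thapsigargin lowered 5 of the 8 genes of the apoptosome and caspases in Sh2 cells (1 rose, median log2 change -0.37), beside 34.4% of all genes tested, and all 8 in Ctrl cells (median -0.73), beside 37.0% of all genes. Casp6 fell by 1.84 in Sh2 and 2.04 in Ctrl cells, Casp9, the initiator caspase of the apoptosome, by 0.92 and 1.39, Casp8, which cleaves Bid, by 0.40 and 0.86, and Casp12, tied to the endoplasmic reticulum in the mouse, by 0.35 and 0.96. In Sh2 against Ctrl cells 2 of these 8 were higher and 2 lower under thapsigargin (28.5% and 28.4% of all genes), and 3 were higher and 5 lower in DMSO (25.0% and 26.5%). The difference of the thapsigargin effects was positive for 5 and negative for 1, beside 17.7% each of all genes. Of 8 genes of mitochondrial permeability and released factors none rose and 5 fell with thapsigargin in Sh2 cells (35.4% and 34.4% of all genes). In Ctrl cells 3 rose and 3 fell (37.7% and 37.0%). Vdac1 had the largest fall of the 8 in both kinds of cell, by 0.85 in Sh2 and 0.67 in Ctrl cells. Aifm1, a mitochondrial flavoprotein released in cell death, fell by 0.63 in Sh2 cells and rose by 0.15 in Ctrl cells (difference -0.78 ± 0.07, edgeR adjusted p = 7.77e-11). Of 6 caspase inhibitors 3 rose and 3 fell with thapsigargin in Sh2 cells (35.4% and 34.4% of all genes), and 3 rose and 2 fell in Ctrl cells (37.7% and 37.0%). Birc5 fell by 0.58 in Sh2 and 0.83 in Ctrl cells. Cflar, an inhibitor of caspase-8, rose by 0.25 in Sh2 and 0.94 in Ctrl cells, and Birc3 averaged 0.908 CPM in Sh2-Thap and 0.0289 CPM in Sh2-DMSO, and 1.05 CPM in Ctrl-Thap and 0.00964 CPM in Ctrl-DMSO.

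**Figure D4:**
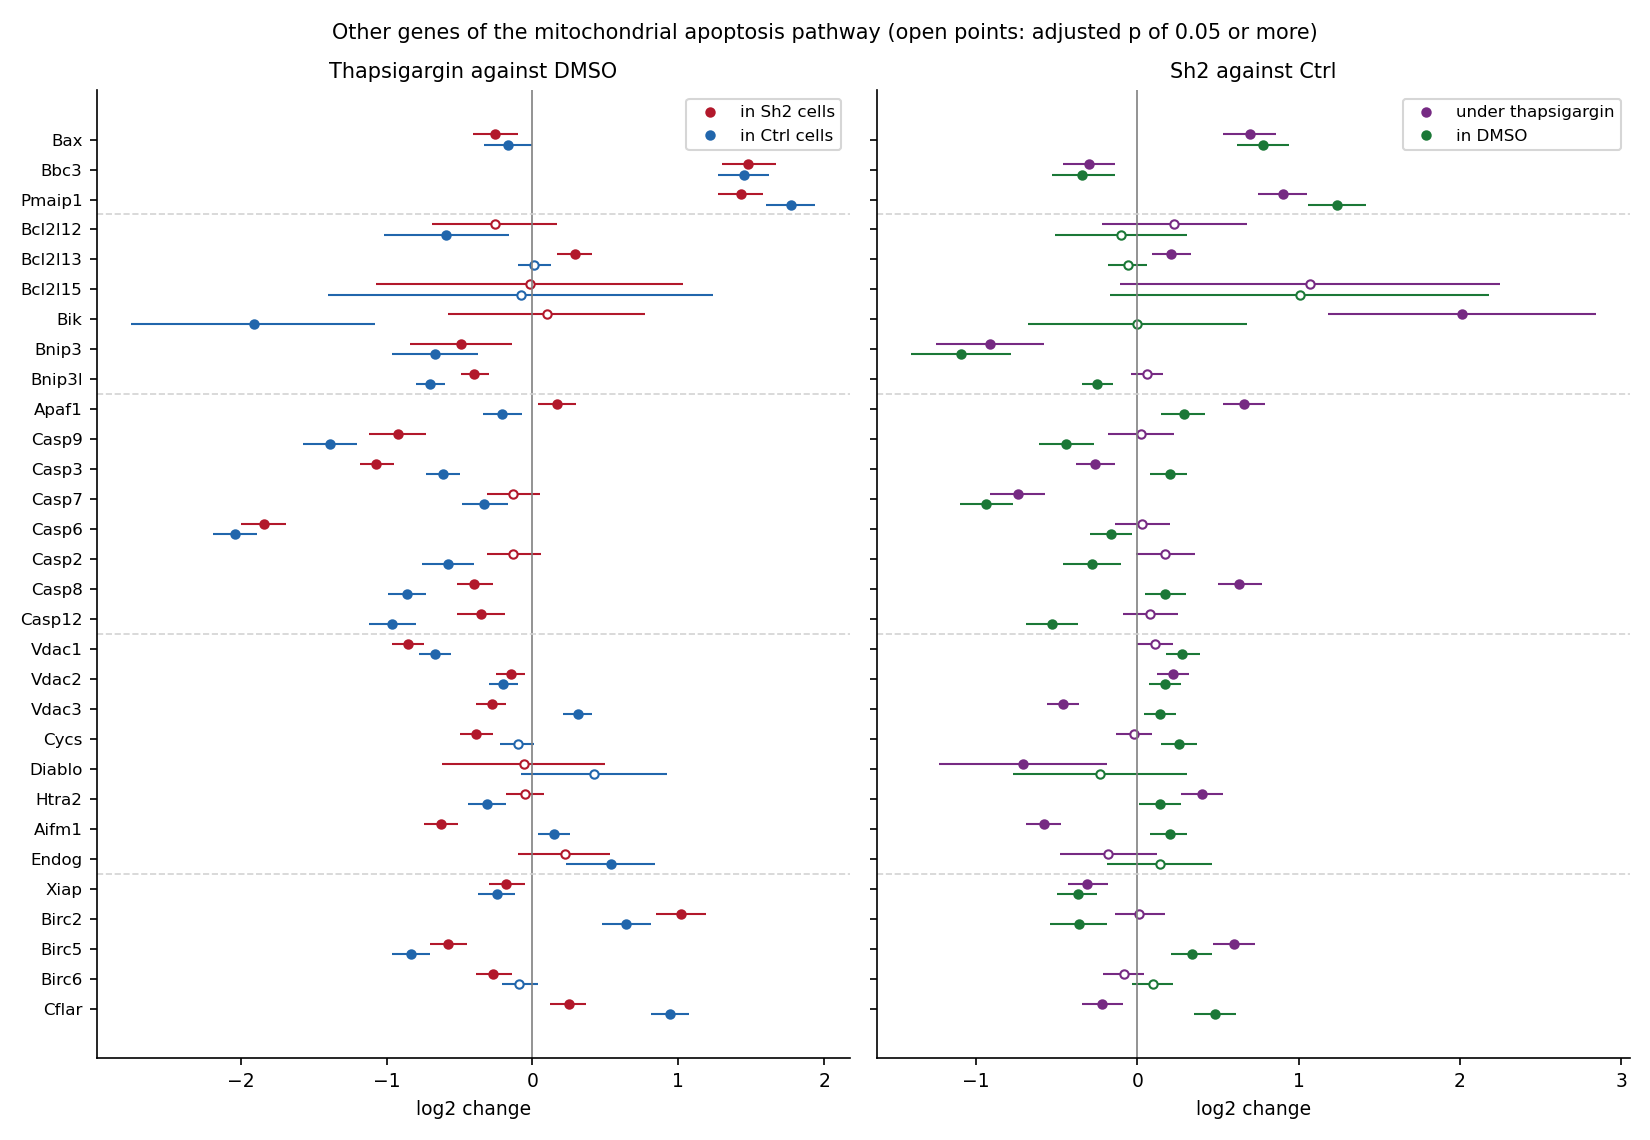
Fitted log2 changes (horizontal axes) with approximate 95% intervals of other genes of the pathway, grouped by dashed lines into p53 targets, other relatives, apoptosome and caspases, mitochondrial factors and caspase inhibitors, for thapsigargin against DMSO (left) and Sh2 against Ctrl (right); open points had an adjusted p of 0.05 or more. Birc3 is left out because it was near 0 in both DMSO groups; Casp6 stands at -1.84 in Sh2 and -2.04 in Ctrl cells on the left.

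Of 15 genes whose proteins act on members after transcription, 4 rose and 8 fell with thapsigargin in Sh2 cells (35.4% and 34.4% of all genes), and 5 rose and 7 fell in Ctrl cells (37.7% and 37.0%). Trim17, a ubiquitin ligase for Mcl1 in mouse neurons, averaged 9.03 CPM in Sh2-Thap and 0.533 CPM in Sh2-DMSO, and 6.96 CPM in Ctrl-Thap and 0.753 CPM in Ctrl-DMSO. Dynll1 and Dynll2, the dynein light chains that hold Bim and Bmf, fell by 0.70 and 0.73 on the log2 scale in Sh2 cells and by 0.84 and 0.94 in Ctrl cells. Ywhah, a 14-3-3 gene, fell by 0.45 in Sh2 and 0.95 in Ctrl cells. Other 14-3-3 genes did not all follow it. In Sh2 and Ctrl cells Ywhaz fell by 0.63 and 0.38, Ywhaq by 0.56 and 0.37 and Ywhae by 0.43 and 0.40. Ywhag rose by 0.77 in Ctrl cells and was not called in Sh2 cells. Ywhab fell by 0.29 in Sh2 cells and was not called in Ctrl cells. In Sh2 against Ctrl cells 6 of the 15 were higher and 9 lower under thapsigargin (28.5% and 28.4% of all genes), and 3 were higher and 4 lower in DMSO (25.0% and 26.5%). Of 6 transcription factors with known targets among the members, Ddit3 rose by 3.42 in Sh2 and 4.59 in Ctrl cells and Atf4 by 1.37 and 2.05, both less in Sh2 cells, while E2f1 fell by 0.64 and 1.32. E2f1 averaged 35.7 CPM in Sh2-Thap, 55.6 in Sh2-DMSO, 26.4 in Ctrl-Thap and 65.8 in Ctrl-DMSO. Jun rose by 0.46 in Sh2 cells and fell by 0.40 in Ctrl cells with thapsigargin (difference 0.86 ± 0.07, edgeR adjusted p = 4.08e-11).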

How the data were processed

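RNA was measured in 12 libraries, 3 in each of 4 groups. The deposited counts are raw whole-number reads per gene; per the submitters' processing notes the authors used Trim Galore, STAR 2.5.3a, bedtools 2.31.0 and DESeq2, with builds mm10 and hg38 both named. The counter, annotation release and strand are not given in the sources used here. Of 53801 identifiers, 53706 were matched to GENCODE vM21 (GRCm38), which gave symbols and exon lengths, and 95 were not. A further 5 entries naming no gene held 13.3% to 14.6% of reads and were left out of library sizes and tests. No column was unused.

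Counts were analysed in R 4.3.3 with edgeR 4.0.16: TMM scaling, filterByExpr (15828 genes kept), a robust quasi-likelihood fit over 4 group means with 8 residual degrees of freedom, and Benjamini-Hochberg adjustment over all genes tested, called under 0.05. The common biological coefficient of variation was 4.67%. Standard errors were derived as |log2 change| over the root of the F statistic and intervals from them with 8 degrees of freedom, so both are approximate. CPM uses TMM-scaled library sizes. Replicates of a group differed beyond sampling noise in every pair. The code was tested on simulated data.

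All 10 members are named in every comparison; of each further list, counts and up to 4 of the genes with the largest called change, and Cebpg as the check of the knockdown. Genes that overlap a member are given beside it, and Krt18, Cd68 and Cd3e were named after their values were seen. Members and lists were chosen with earlier results of these data known. Deviations of same-numbered libraries correlated in some pairs of groups and not in others, so numbers were not used as pairs. Alternatives were other scalings and filters, DESeq2 1.42.0, limma-voom 3.58.1, a replicate block, only the groups compared, and leaving out each library.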

Additional observations from a re-analysis of the deposited data

Results flagged for a closer look

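The response to thapsigargin differed between Sh2 and Ctrl cells for 5 members by a test of the difference itself (Sh2 effect minus Ctrl effect, log2 scale, edgeR quasi-likelihood interaction test with Benjamini-Hochberg adjustment over all genes tested), which is why they are listed. Bmf had a difference of 2.16 (adjusted p = 3.51e-06), with all 3 Sh2-Thap libraries above the Sh2-DMSO libraries and all 3 Ctrl-Thap libraries below the Ctrl-DMSO libraries. Bok had a difference of 1.08 (adjusted p = 5.49e-12) and Bad one of 0.39 (adjusted p = 0.00331), both falling less in Sh2 cells. Bcl2l1 had a difference of -0.35 (adjusted p = 0.000262), falling more in Sh2 cells. Mcl1 had a difference of -0.16 (adjusted p = 0.0309), rising less in Sh2 cells, and this was the least stable of the 5. Over all genes tested 35.4% had such a difference.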

How the results depend on the processing

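Each member's change in each comparison was recomputed under up to 21 alternatives. Of 1040 values 1014 kept their side of the threshold, 21 lost a call and 5 gained one, and each lost or gained call is given beside its gene. The sign turned in 6 values, 0 of them called. With scaling by library size alone these were Bcl2l2 for thapsigargin in Sh2 cells (0.05) and the differences for Bcl2l11 (0.08) and Bid (0.10); the other 3 were Bid for Sh2 under thapsigargin (-0.01) and the difference for Bcl2l2 (-0.05 and -0.01) with 1 library left out. Counts of all genes called stayed within 1.5 times the values given, between 10579 and 11270 for thapsigargin in Sh2 cells when 1 library was left out, 11526 and 12130 in Ctrl cells, 8314 and 9219 for Sh2 under thapsigargin, 7338 and 8283 in DMSO, and 5062 and 5446 for the difference. With the longest transcript as length, the summed anti-apoptotic level was 107 CPM per kb in Sh2-Thap, 116 in Sh2-DMSO, 99.6 in Ctrl-Thap and 93.0 in Ctrl-DMSO, and the pro-apoptotic 143, 208, 114 and 178. With scaling by library size alone the anti-apoptotic sum was 102 in Sh2-Thap and 86.5 in Ctrl-Thap, and the pro-apoptotic 115 and 81.1. With the replicate number as a block 11117 genes were called for thapsigargin in Sh2 and 11855 in Ctrl cells, 9110 for Sh2 under thapsigargin, 8280 in DMSO and 5771 for the difference; correlations of same-numbered libraries ranged between -0.20 and 0.32, some above and some below 0, so the numbers are not treated as pairs. Depth limits Bmf most, at 12 to 124 reads per library. For the difference the fit on only the groups compared is the fit given, since it uses all 4 groups.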
